A study of Mus musculus with 9 samples.

Results

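The mitogen-activated protein kinase (MAP kinase) phosphatases of the Dusp family were followed in the striatum of mice given MPTP, which is converted to a toxin of dopamine neurons. The members were the probe sets whose single gene symbol in the platform annotation was Dusp1, Dusp2, Dusp4, Dusp5, Dusp6, Dusp7, Dusp10, Dusp14 or Dusp16. Each of these 9 genes had 1 probe set, so 9 of the 28815 probe sets on the array were members. Of the 9, 8 reached the filter on low values, an average of at least log2 5.892 across the 9 arrays, and were tested among 16335 probe sets. Dusp2 lay just below it.

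There were 3 groups of mice with 3 arrays each. Controls received 4 saline injections 2 h apart, and striatum was taken 1 week later. The acute group received 4 injections of MPTP 2 h apart, each of 20 mg/kg and 80 mg/kg in total, given intraperitoneally, with striatum taken after 1 week. The chronic group received MPTP at 4 mg/kg once a day on 20 days, again 80 mg/kg in total, with striatum taken 8 weeks afterwards. There was no saline group at 8 weeks, so regimen and time cannot be told apart in any comparison with the chronic group. Strain, age and sex are not given in the sources used here. Nor do they state whether the 3 arrays of a group came from separate animals, so the p-values reflect how far these samples spread, which may be technical.

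MAP kinases (ERK, JNK and p38) are switched on by phosphorylation of a threonine and a tyrosine in the activation loop, and the dual-specificity phosphatases remove both phosphates. Several of them are themselves transcribed in response to MAP kinase signalling, so they work as negative feedback and belong among the immediate early genes. In striatal projection neurons dopamine and glutamate receptors act together on the ERK pathway. Dusp1, Dusp2, Dusp4 and Dusp5 are inducible nuclear enzymes, Dusp6 and Dusp7 are cytoplasmic and prefer ERK, Dusp10 and Dusp16 act mainly on JNK and p38, and Dusp14 is a small atypical enzyme without the MAP kinase-binding domain.

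Upstream sequences are shown for Dusp1, Dusp5, Dusp6 and Dusp14, the members whose chronic and acute arrays did not overlap. Each is the 250 bases before the annotated start of a transcript, read 5′ to 3′ on the gene's strand, from RefSeq (GRCm38.p6). The Dusp14 window lies inside the annotated gene (84048033 to 84069256), so its start is not the outermost one. Capitals mark cores of the cyclic AMP response element (CRE), TGACG on either strand, including the full palindrome TGACGTCA that contains them, and CArG boxes, the core of the serum response element. Dusp1 lies on the minus strand at chr17:26508473-26508722, Dusp5 on the plus strand at chr19:53528895-53529144, Dusp6 on the plus strand at chr10:99262981-99263230 and Dusp14 on the minus strand at chr11:84068358-84068607.
Dusp1: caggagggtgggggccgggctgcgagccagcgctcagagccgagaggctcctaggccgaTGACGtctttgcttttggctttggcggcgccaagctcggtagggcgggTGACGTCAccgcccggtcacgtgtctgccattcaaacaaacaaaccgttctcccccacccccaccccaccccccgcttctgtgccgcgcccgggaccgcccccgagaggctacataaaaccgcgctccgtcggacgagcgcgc
Dusp5: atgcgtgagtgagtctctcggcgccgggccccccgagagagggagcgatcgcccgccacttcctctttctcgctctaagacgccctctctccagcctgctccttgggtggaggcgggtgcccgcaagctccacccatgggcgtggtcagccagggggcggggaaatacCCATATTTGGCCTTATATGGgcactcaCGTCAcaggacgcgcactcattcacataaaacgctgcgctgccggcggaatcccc
Dusp6: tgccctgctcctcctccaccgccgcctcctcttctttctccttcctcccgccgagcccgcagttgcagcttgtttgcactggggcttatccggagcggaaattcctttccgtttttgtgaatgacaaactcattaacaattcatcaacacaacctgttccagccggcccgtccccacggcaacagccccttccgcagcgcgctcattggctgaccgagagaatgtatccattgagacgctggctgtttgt
Dusp14: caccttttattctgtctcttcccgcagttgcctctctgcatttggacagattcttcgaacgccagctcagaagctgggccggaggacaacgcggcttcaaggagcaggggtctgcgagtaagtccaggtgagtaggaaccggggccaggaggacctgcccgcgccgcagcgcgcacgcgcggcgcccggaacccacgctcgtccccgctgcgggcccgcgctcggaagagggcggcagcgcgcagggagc

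The Dusp1 window held 1 full CRE, from 143 to 136 bases before the start, which is found in 1.55% of 32851 promoter windows of the same length. A further CRE core lay at 191 to 187 bases before the start, and 17.8% of windows held at least 1 core. The Dusp5 window held 2 neighbouring CArG boxes, CCATATTTGG at 82 to 73 bases and CCTTATATGG at 72 to 63 bases before the start, and 1.47% of windows held 1 or more. It also had a CRE core on the other strand, at 55 to 51 bases before the start. In the Dusp6 and Dusp14 windows neither motif was found in these letters, and nothing follows from that about the factors that bind them. Of the 8 members with an upstream sequence in the table, Dusp16 was the other one with a match, a CRE core at 70 to 66 bases before the start. Its window also lies inside the annotated gene. Motifs were searched on both strands, and a match in letters is no evidence of binding.

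The striatal identity of the samples was checked first. Ppp1r1b (DARPP-32), the dopamine-regulated phosphatase inhibitor of projection neurons, lay between log2 11.44 and 12.31 on the 9 arrays, and Drd2, a dopamine receptor of these neurons, between 10.88 and 12.01. Neighbouring tissue varied between arrays. Tbr1 and Slc17a7, genes of cortical glutamatergic neurons, were high on control 1, acute 1 and acute 2 (Tbr1 at 9.12 or above, Slc17a7 at 11.75 or above) and reached at most 7.27 and 9.66 elsewhere. These are the arrays called high in cortex genes below. Not every cortex marker followed: Neurod1, Cux2, Rorb and Lamp5 did not, and Lamp5 was lowest on control 1 (9.38) and highest on chronic 3 (10.24). Ttr, a choroid plexus gene, and Slc17a6, a vesicular glutamate transporter of thalamus and hypothalamus, were highest on control 3 (12.56 and 10.59) and acute 3 (13.37 and 9.43). For these genes chronic 3 came next (10.85 and 8.51). It was kept in the fits without the 2 arrays high in choroid plexus genes, control 3 and acute 3. Other markers ordered the arrays differently. Prkcd, Zic1, Zic4 and Calb2 of the thalamus list were higher on chronic 2 than on chronic 3, and Prkcd also than on acute 3 (9.39 against 9.26). So were Kl, Aqp1, Otx2, Sostdc1, Clic6 and Calml4 of the choroid plexus list on chronic 2 against chronic 3. The mean deviations were -0.01 and 0.12 (thalamus) and -0.34 and 0.09 (choroid plexus) on chronic 2 and chronic 3. Over the 13 measured markers of striatal projection neurons, the mean deviation from each marker's own average ran from -0.59 to 0.13 on the control arrays, from -0.02 to 0.10 on the acute and from 0.18 to 0.35 on the chronic arrays. In such bulk samples fewer cells of a type and less RNA per cell cannot be told apart.

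**Figure D1:**
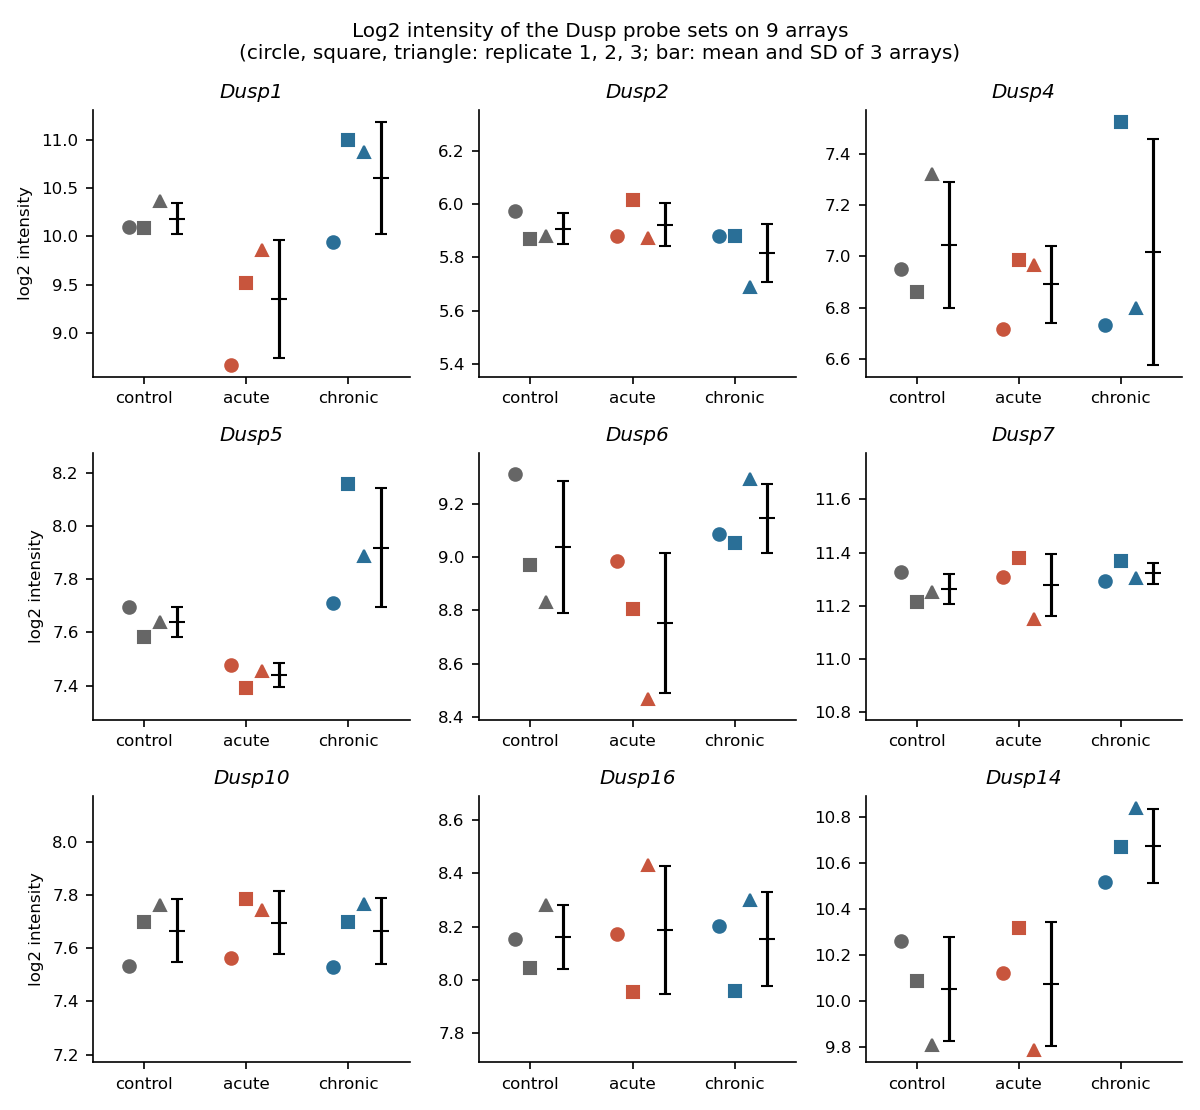
Log2 intensity of the 9 Dusp probe sets (vertical axis, each panel with its own scale) on the control, acute and chronic arrays. Circles, squares and triangles are replicates 1, 2 and 3, and the bar beside each group is the mean with the standard deviation of 3 arrays. On Dusp1, Dusp5, Dusp6 and Dusp14 the chronic arrays lie above the acute arrays, while Dusp10 and Dusp16 follow the replicate number.

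Dusp1, Dusp5, Dusp6 and Dusp14 lay higher 8 weeks after chronic MPTP than 1 week after acute MPTP, each with 3 chronic arrays above 3 acute arrays, as in 3.61% of all tested probe sets. The differences were 2.39-fold for Dusp1, 1.51-fold for Dusp14, 1.39-fold for Dusp5 and 1.31-fold for Dusp6. None of the 8 tested members passed an adjusted p of 0.05 in limma over 16335 probe sets, in this comparison or against the controls. At that threshold the chronic against acute comparison called 0.0122% of all tested probe sets, and each comparison with the controls called 0%. Compared with the controls, every acute array was lower in Dusp1 and Dusp5 (1.49% of all probe sets), and every chronic array was higher in Dusp5 and Dusp14 (2.88%).

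Dusp1 encodes an inducible nuclear phosphatase of p38, JNK and ERK. On the log2 scale it measured 10.10, 10.09 and 10.37 in the 3 controls, 8.67, 9.52 and 9.86 after acute MPTP and 9.94, 10.998 and 10.87 after chronic MPTP. Every acute array was lower than every control and every chronic array, whereas chronic 1 was below all controls. The acute mean of 9.35 ± 0.61 (SD, n = 3) was 1.78-fold below the control mean of 10.18 ± 0.16, a log2 difference of -0.84 ± 0.33 (SE; 95% interval -1.59 to -0.08). Its unadjusted p of 0.0329 ranked 65 among 16335 probe sets, with an adjusted p of 1 in limma. The chronic mean was 10.60 ± 0.58, which differed by 0.42 ± 0.33 from the controls (-0.33 to 1.17) and by 1.26 ± 0.33 from the acute group (0.50 to 2.01; adjusted p = 0.877 in limma).

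The spread of Dusp1 within a group was large, with a residual SD of 0.49 against a median of 0.16 over all tested probe sets. Arrays of the same replicate number shared part of it: the number 1 array was the lowest of both MPTP groups. Within the numbers 1, 2 and 3 the chronic array exceeded the acute array by 1.27, 1.48 and 1.01. The acute arrays differed from their same-numbered controls by -1.42, -0.57 and -0.51. With the replicate number as a block the SE of the Dusp1 differences was 0.20. The unadjusted p in limma was then 0.0029 for acute against control (adjusted p = 0.98) and 0.00023 for chronic against acute (adjusted p = 0.232). The acute arrays lowest in Dusp1, acute 1 and acute 2, were those high in cortex genes. Control 1, also high in cortex genes, lay at 10.10 in Dusp1, next to 10.09 on control 2, which was not. The part of tissue mix in the Dusp1 values was not tested. Over the 11 measured of 12 cortex markers, the mean deviation ran from -0.42 to 1.12 on the control arrays, from -0.47 to 0.92 on the acute and from -0.72 to -0.41 on the chronic arrays. Without control 1, acute 1 and acute 2, which leaves 1 acute array, the acute difference from control was -0.37 and the chronic difference from acute 0.75. With the means of the cortex and thalamus lists as covariates they were -0.63 and 1.46. Without acute 1 alone the acute difference from control was -0.50. The difference between chronic and control arrays was 0.75 without chronic 1, 0.22 without chronic 2 and 0.83 with the covariates.

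Dusp5, a nuclear phosphatase specific for ERK, separated the 3 groups completely. Its values were 7.70, 7.58 and 7.64 in the 3 controls, 7.48, 7.39 and 7.46 after acute MPTP and 7.71, 8.16 and 7.89 after chronic MPTP. Every acute array lay below every control and every control below every chronic array, although chronic 1 exceeded control 1 by 0.014. The share of all tested probe sets with this order of groups was not counted. The control and acute means were 7.64 ± 0.06 and 7.44 ± 0.05 (SD, n = 3), a difference of -0.20 ± 0.11 (95% interval -0.45 to 0.06), with unadjusted p = 0.112 and adjusted p = 1 in limma. The chronic mean of 7.92 ± 0.22 was 0.28 ± 0.11 above the controls (0.02 to 0.53; unadjusted p = 0.0354, adjusted p = 0.899 in limma). Against the acute arrays the chronic arrays were higher by 0.48 ± 0.11 (0.22 to 0.73). The unadjusted p of that difference, 0.00214, ranked 26 among 16335 (adjusted p = 0.877 in limma). The difference between chronic and control was 0.16 without chronic 2, the array with the highest Dusp5.

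Dusp2, which encodes a nuclear phosphatase known from activated lymphocytes, had a mean of 5.88 over the 9 arrays, below the filter, and was not tested. It ran from 5.87 to 5.98 on the control arrays, from 5.87 to 6.01 on the acute and from 5.69 to 5.88 on the chronic arrays. Dusp4, the fourth inducible nuclear enzyme, overlapped between all groups. Its values were 6.95, 6.86 and 7.32 in the 3 controls, 6.72, 6.99 and 6.97 after acute MPTP and 6.73, 7.52 and 6.80 after chronic MPTP. Single arrays, chronic 2 and control 3, were the highest. The differences were -0.15 for acute against control (95% interval -0.63 to 0.32), -0.03 for chronic against control (-0.51 to 0.45) and 0.13 for chronic against acute (-0.35 to 0.61). Acute against control stayed below 0 without any single array, from -0.25 without control 2 to -0.015 without control 3. Chronic against acute turned to -0.13 without chronic 2, and chronic against control turned to 0.11 without control 3, 0.12 without chronic 1 and 0.083 without chronic 3.

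**Figure D2:**
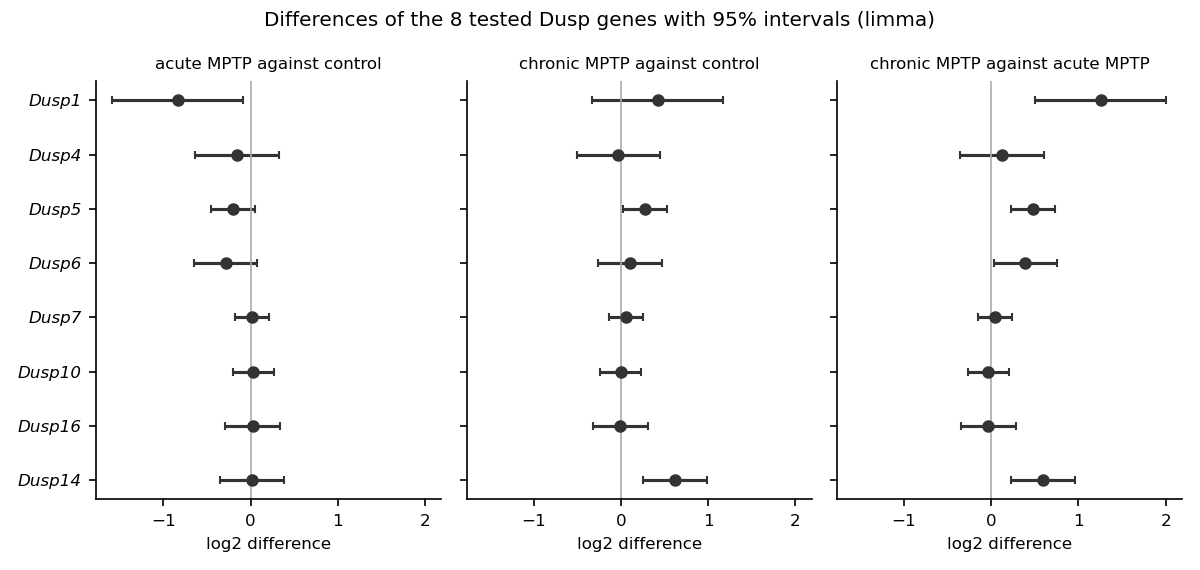
Log2 differences (horizontal axis) of the 8 tested Dusp genes in the 3 comparisons, as points with the 95% interval of the limma fit. Positive values mean higher in the group named first. The intervals of Dusp1, Dusp5, Dusp6 and Dusp14 exclude 0 in chronic against acute MPTP before adjustment, while those of Dusp7, Dusp10 and Dusp16 include 0 in every comparison.

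The cytoplasmic ERK phosphatases differed from one another in how far they varied. Dusp6, which is induced by ERK signalling and in turn inactivates ERK, lay at 9.31, 8.97 and 8.83 in the 3 controls, 8.98, 8.81 and 8.47 after acute MPTP and 9.09, 9.05 and 9.29 after chronic MPTP. The control arrays overlapped both MPTP groups, and the acute arrays lay below the chronic ones. The group means were 9.04 ± 0.25, 8.75 ± 0.26 and 9.15 ± 0.13 (SD, n = 3). Chronic exceeded acute by 0.39 ± 0.16 (95% interval 0.03 to 0.76), with unadjusted p = 0.0378 and adjusted p = 0.877 in limma. Acute differed from control by -0.29 ± 0.16 (-0.65 to 0.08), and in the same direction within each of the 3 replicate numbers, by -0.33, -0.16 and -0.36. The difference between chronic and acute was 0.25 without acute 3, the lowest array, and 0.68 without the 3 arrays high in cortex genes. Chronic differed from control by 0.11, which ran from 0.0032 without control 3 to 0.25 without control 1. That between acute and control was -0.14 without acute 3 and -0.15 without control 1.

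Dusp7, which also prefers ERK, varied least of the tested members after its group means were removed, with a residual SD of 0.08. It ran from 11.21 to 11.33 on the control arrays, from 11.15 to 11.38 on the acute and from 11.29 to 11.37 on the chronic arrays, and the groups overlapped. The differences were 0.01 for acute against control (95% interval -0.18 to 0.21), 0.06 for chronic against control (-0.14 to 0.25) and 0.04 for chronic against acute (-0.15 to 0.24).

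The JNK and p38 phosphatases Dusp10 and Dusp16 varied with the replicate number far more than with the treatment. Dusp10 was lowest on the number 1 array of each group, at 7.53, 7.56 and 7.53 for control, acute and chronic. On the number 2 and number 3 arrays it lay at 7.70 and 7.76 in controls, 7.78 and 7.74 after acute and 7.70 and 7.77 after chronic MPTP. Dusp16 was lowest on the number 2 arrays, at 8.04, 7.95 and 7.96, intermediate on the number 1 arrays, at 8.16, 8.17 and 8.20, and highest on the number 3 arrays, at 8.28, 8.43 and 8.30. The replicate number accounted for 93.5% of the variance of Dusp10 over the 9 arrays and the group for 2.22%. For Dusp16 these shares were 90.5% and 0.846%. Over all tested probe sets the median shares were 45.1% and 19.1%, so a tie to the number was common. In Dusp5 and Dusp14 the order was the other way, with 75.7% and 71.4% between groups and 2.20% and 6.98% between numbers, and Dusp1 had 62.7% and 27.1%. Differences between group means reached at most 0.03 in size for both genes. For chronic against acute the 95% interval ran from -0.27 to 0.21 for Dusp10 and from -0.35 to 0.28 for Dusp16.

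Dusp14, the atypical member, lay at 10.26, 10.09 and 9.81 in the 3 controls, 10.12, 10.32 and 9.79 after acute MPTP and 10.52, 10.67 and 10.84 after chronic MPTP. Control and acute arrays overlapped, and all 3 chronic arrays lay above all of them. The chronic mean of 10.67 ± 0.16 (SD, n = 3) was 1.54-fold above the control mean of 10.05 ± 0.23, by 0.62 ± 0.16 on the log2 scale (95% interval 0.25 to 0.99). The unadjusted p of 0.00396 ranked 59 among 16335, and the adjusted p was 0.876 in limma. That is the smallest adjusted p of any probe set in that comparison, but it was tied. Genes with a smaller unadjusted p, such as Nr4a1, and with a larger one, such as Mapk4, had the same value. Chronic exceeded acute by 0.60 ± 0.16 (0.23 to 0.97; adjusted p = 0.877 in limma), while acute and control differed by 0.02 ± 0.16 (-0.34 to 0.39). The chronic difference from control ranged from 0.50 without control 3 to 0.72 without control 1, and was 0.69 with the tissue covariates. The mean of the striatal projection neuron markers was also highest on the 3 chronic arrays, and its part in the Dusp14 result was not tested.

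**Figure D3:**
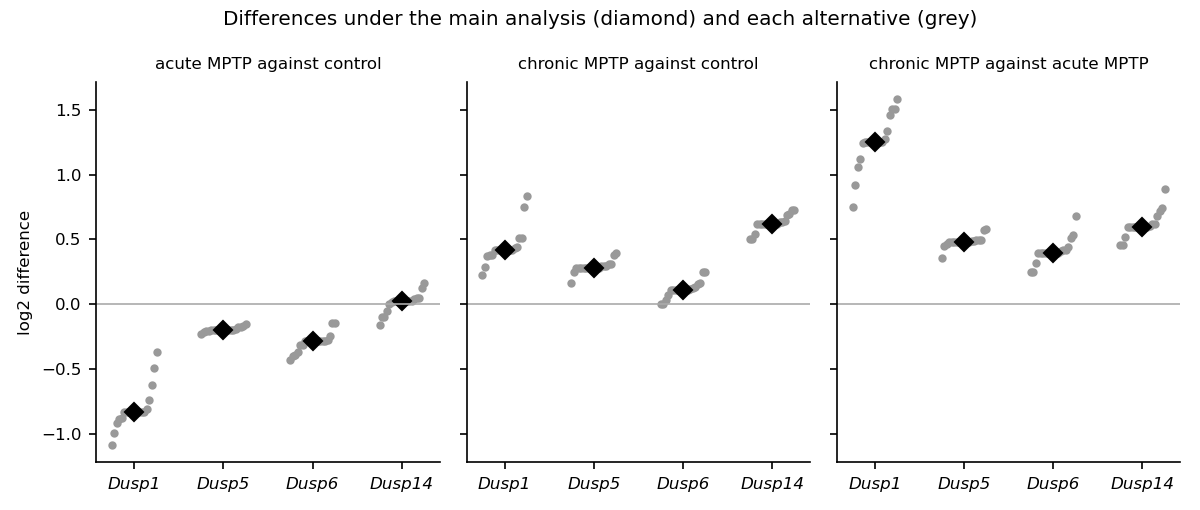
Log2 differences (vertical axis) of Dusp1, Dusp5, Dusp6 and Dusp14 in the 3 comparisons. Diamonds are the values of the main analysis and grey points, sorted by size, those of each alternative. In chronic against acute MPTP the points of all 4 genes lie above 0, from 0.25 for Dusp6 to 1.59 for Dusp1.

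Counted over the 8 tested members, acute MPTP gave 4 means above the control mean and 4 below, with a median difference of -0.07 against 0.004 over all tested probe sets, of which 51.5% were above. That median was 0.014 with no filter, which adds Dusp2, and ran from -0.14 without acute 2 to -0.034 without acute 1. In chronic against control 5 were above and 3 below (median 0.08 against -0.01), with 46.7% of all probe sets above, and the members' median ran from 0.053 without control 2 to 0.17 without control 1 and was 0.25 with the tissue covariates. In chronic against acute 6 were above and 2 below (0.26 against -0.01), with 46.1% above, and the members' median was 0.13 with no filter and 0.46 with the covariates. At an unadjusted p under 0.05, 1 member was lower in acute against control, as were 0.435% of all probe sets. In chronic against control 2 members were higher at that p, against 2.85% of all, and in chronic against acute 4 were higher, against 2.36%. Groups did not overlap for 2 members that were lower after acute MPTP than in controls (1.49% of all probe sets), for 2 that were higher after chronic MPTP than in controls (2.88%) and for 4 that were higher after chronic than after acute MPTP (3.61%). The 2 comparisons with saline share the control arrays and are not independent of each other. The count of 4 in chronic against acute was 2, Dusp6 and Dusp14, without the 3 arrays high in cortex genes. It was 3 without acute 2, acute 3, chronic 1 or chronic 3, each of which lost Dusp6, and likewise without the 2 arrays high in choroid plexus genes. The count of 1 in acute against control, Dusp1, was 0 without any 1 of the controls. Dusp5 joined it without chronic 2 and in the fit of the 2 groups alone, and Dusp6 joined it with the tissue covariates. Without acute 1, or without the 3 arrays high in cortex genes, the 1 member was Dusp6 in place of Dusp1. In chronic against control Dusp5 left the count without control 2, control 3, chronic 2 or chronic 3, in the fit of the 2 groups alone, with the tissue covariates and without the arrays high in cortex or in choroid plexus genes. Dusp1 joined it without chronic 1.

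The genes whose profiles over the 9 arrays were most like those of the members were found by Pearson correlation among all tested probe sets, as a description with no test. All arrays share the treatment groups and tissue mix, so some likeness is common to many genes. For Dusp5 these were Fosb (r = 0.951), Egr2 (r = 0.940) and Zbtb11os1 (r = 0.933). Fosb and Egr2 are immediate early transcription factors. Egr2 lay at 7.75, 7.74 and 7.90 in the 3 controls, 7.06, 7.17 and 7.10 after acute MPTP and 8.12, 9.13 and 9.16 after chronic MPTP. Like Dusp5, it placed every acute array below and every chronic array above the controls, an order whose share of all tested probe sets was not counted. The genes nearest to Dusp1 were Pcdhb11 (r = 0.972), Macroh2a2 (r = 0.971) and Gstcd (r = 0.961), and those nearest to Dusp6 were Dnajc13, Hmcn1 and Thumpd2 (r from 0.899 to 0.953). Dusp14 was followed by Hmgn2, Dmkn and Lrrc8b (r from 0.934 to 0.962), and Dusp4 by Efna5, Rara and Ano1 (r from 0.967 to 0.977).

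Dusp10 was matched by Lhfpl4, Syvn1 and Atg7 (r from 0.976 to 0.981) and Dusp16 by Suclg2, Ccdc141 and Snapin, each with r = 0.977. These genes shared the tie to the replicate number: Ccdc141 lay at 7.69, 7.41 and 7.26 on the number 2 arrays of the control, acute and chronic groups and at 8.31, 8.85 and 8.71 on the number 3 arrays. For Dusp7, whose own range was 0.229, the nearest were Olfr420, Rimbp2 and Il17a (r from 0.883 to 0.952), of which Olfr420 stayed between 5.79 and 6.07, close to the filter.

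**Figure D4:**
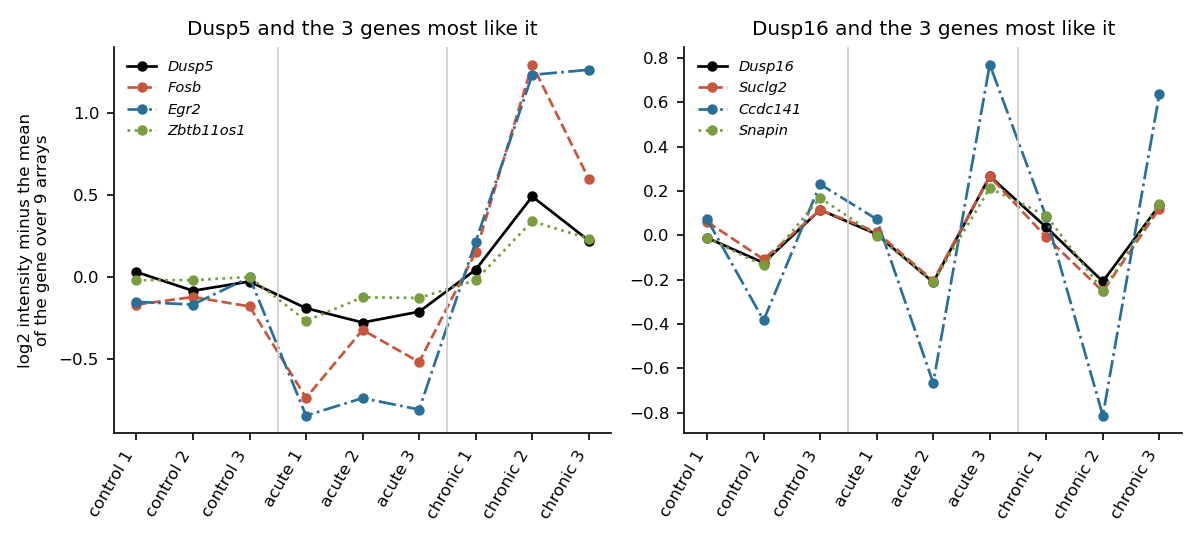
Log2 intensity minus the mean of each gene over 9 arrays (vertical axis) on each array, for Dusp5 (left) and Dusp16 (right) with the 3 genes most like each. Lines join the arrays to show the profile and imply no order. Dusp5, Fosb and Egr2 are lowest on the acute arrays, while Dusp16 and its nearest genes dip on the number 2 array of every group.

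Other genes of the MAP kinase pathway were read from 7 lists of 115 genes, among which 105 were measured by a probe set carrying 1 symbol and 103 entered the test. The 23 activity-regulated genes, like the other lists, were chosen with earlier results of these data known. Their likeness to the members is therefore no independent support. Of 22 tested, 15 were lower after acute MPTP than in controls (median -0.24), while 51.5% of all tested probe sets were higher. After chronic MPTP 19 were higher than in controls (0.46), against 46.7% of all. In chronic against acute 19 were higher (46.1% of all), with a median of 0.72. At an unadjusted p under 0.05 in limma 15 were higher (2.36% of all) and 1, Bdnf, was lower. In that comparison 2 genes of the list passed the adjusted threshold in limma (0.0122% of all). These were Nr4a1, an inducible nuclear receptor, by 2.38 ± 0.16 (adjusted p = 0.00131), and Arc, an activity-dependent synaptic protein, by 1.18 ± 0.12 (adjusted p = 0.0288). Against controls 0 passed in either comparison. At an unadjusted p under 0.05, 6 were lower after acute (0.435% of all) and 9 higher after chronic MPTP (2.85% of all). Nr4a1 also had the smallest p of the list against controls, with differences of -1.31 ± 0.16 for acute (adjusted p = 0.23 in limma) and 1.08 ± 0.16 for chronic MPTP (adjusted p = 0.876). Neither passed with the tissue covariates (adjusted p = 0.0752 for Nr4a1 and 0.503 for Arc), where 0 probe sets did, or without the arrays high in cortex (both 1) or choroid plexus genes (0.0747 and 0.289). Arc was also lost with the replicate block (adjusted p = 0.0619), in the fit of the 2 groups alone (0.0903), with no filter on low values (0.0527), and without control 2 (0.0861), control 3 (0.0656), acute 1 (0.264), acute 2 (0.254), acute 3 (0.128), chronic 2 (0.103) or chronic 3 (0.203), while Nr4a1 passed in each of these fits in limma.

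The remaining lists had 0 genes past the adjusted threshold in each of the 3 comparisons in limma. Their 81 tested genes were each read from the brightest probe set. Of these 0, 5 and 4 had an unadjusted p under 0.05 in acute against control, chronic against control and chronic against acute. Over all tested probe sets the shares were 0.851%, 5.51% and 5.12%. The medians of these lists lay between -0.08 and 0.11. Among 14 tested dual-specificity phosphatases that are not members, 0 reached an unadjusted p under 0.05 in limma in any comparison by their brightest probe set. The smallest p were those of Dusp22 for acute (0.11 ± 0.11) and Dusp28 for chronic against control (-0.22 ± 0.13) and of Styx, a catalytically inactive relative, for chronic against acute (0.35 ± 0.20). Dusp8, a phosphatase of JNK and p38, had 2 probe sets, which differed by 0.17 and 0.31 between chronic and acute. The count of 0 used the brighter one, with 0.17. The dimmer one, which was also 0.28 higher in chronic against control, lies outside that count, and its p-values are not given here. Of the MAP kinases, 11 were tested, and Mapk4 had the smallest p for acute (0.15 ± 0.17) and chronic MPTP against control (0.52 ± 0.17). For Mapk11, a p38 kinase, chronic against acute gave -0.90 ± 0.36, the smallest p of the list in that comparison.

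Among 21 upstream kinases and Ras regulators the smallest p belonged to Rasgrf2, an exchange factor for Ras, in acute against control (-0.49 ± 0.27), Map2k4, a JNK kinase, in chronic against control (-0.29 ± 0.11) and Map3k1 in chronic against acute (0.31 ± 0.12). Of 14 other negative regulators the leading genes were sproutys, feedback inhibitors of Ras signalling: Spry4 for acute (-0.26 ± 0.17) and Spry2 for chronic MPTP against control (0.39 ± 0.16) and against acute (0.36 ± 0.16). The smallest p of the 7 downstream kinases was that of Rps6ka5 in acute against control (0.36 ± 0.21) and of Mapkapk2, a kinase activated by p38, in chronic against control (-0.18 ± 0.08) and against acute (-0.19 ± 0.08). For the 14 target transcription factors these were Etv5 (0.26 ± 0.16), Srf, the factor that binds CArG boxes (0.37 ± 0.15), and Elk4, a partner of Srf (0.28 ± 0.13). Their adjusted p ran from 0.876 to 1 in limma.

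**Figure D5:**
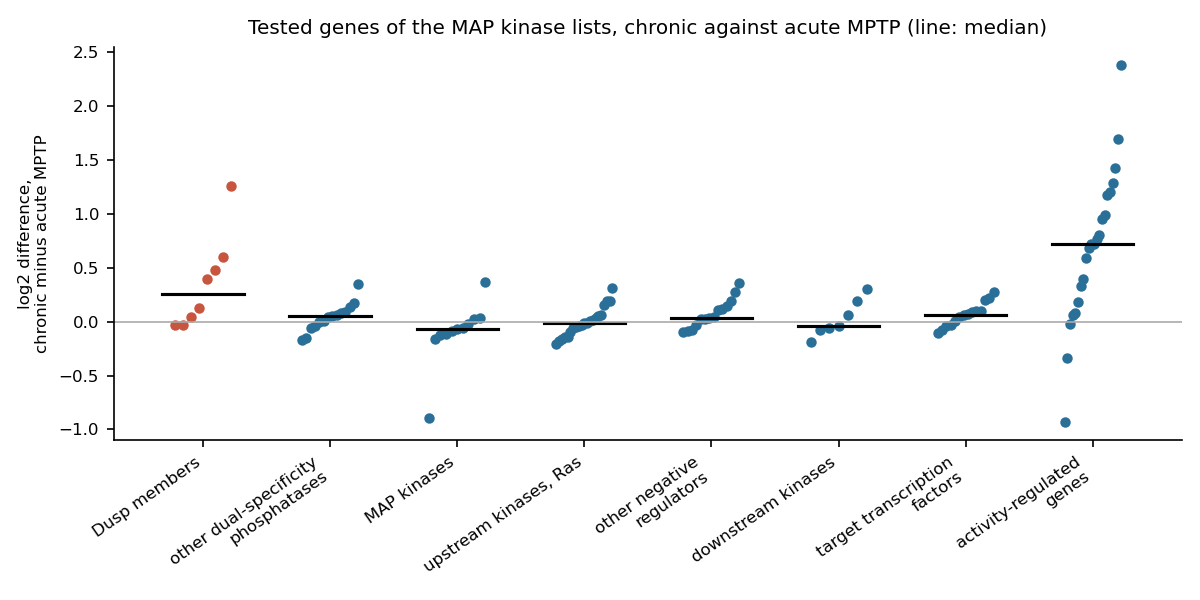
Log2 differences between chronic and acute MPTP (vertical axis) of the 8 tested Dusp members and of the tested genes of the 7 lists, sorted by size within each list, with the median as a line. The medians are 0.26 for the members and 0.72 for the activity-regulated genes, and the other 6 lie between -0.07 and 0.06.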

How the data were processed

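Total RNA of mouse striatum was hybridised to 9 single-colour arrays. Per the labels' protocols, biotinylated cDNA was made from it following Affymetrix. The authors deposited a log2 intensity for each summarised probe set. The scale was read from the values, whose array medians lay between 6.851 and 6.903. The sources used here do not give the normalization, and no further scaling was applied. Gene symbols came from the platform annotation: 21780 of 28815 had 1 symbol, 1605 several and 5430 none. Those with 1 symbol and a mean at or above the 25th percentile were tested.

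A mean per group was fitted to all 9 arrays with limma 3.58.1 in R 4.3.3 (6 residual degrees of freedom). Two-sided p-values were adjusted by Benjamini-Hochberg over 16335 probe sets, with a threshold of 0.05. Errors of differences are standard errors of that fit. The number of arrays limits the precision. In the lists a gene was represented by its brightest probe set. Named were the 9 members, the 3 genes most like each tested member, and in each list the genes past the threshold or else that with the smallest p. The members and lists were chosen with earlier results of these data known.

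After group means were removed, arrays with the same number correlated in all 9 pairs (r from 0.157 to 0.673), against -0.609 to 0.184 in 18 other pairs, so the numbers count as pairing, from the values. The main fit leaves this pairing out, so its errors, intervals and p-values include differences between the numbers. With the number as a block the SE was 0.20 in place of 0.33 for Dusp1, and 0.15 in place of 0.16 for Dusp14. No 2 arrays were identical, with at most 6.34% equal values. The code was tested on simulated data with known changes.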

Additional observations from a re-analysis of the deposited data

Results flagged for a closer look

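In Dusp5 all 3 acute arrays lay below and all 3 chronic arrays above the controls. Chronic 1 exceeded control 1 by only 0.014. The acute difference from control was -0.20 (unadjusted p = 0.112 in limma), so a decrease after acute MPTP was not established. The chronic difference from control was 0.28 (unadjusted p = 0.0354, adjusted p = 0.899 in limma). How many of all tested probe sets showed the same order of groups was not counted. The difference between chronic and acute was 0.48 on the log2 scale (unadjusted p = 0.00214, adjusted p = 0.877 in limma), so it did not pass after adjustment.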

How the results depend on the processing

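In limma 0 of the members passed the adjusted threshold in any of the 3 comparisons, under every alternative run: 2 scalings, 2 filters, moderation with trend, fits of 2 groups, the replicate block, tissue covariates, fits without the 3 arrays high in cortex or the 2 high in choroid plexus genes, and without each array. With the replicate block the smallest adjusted p of a member was 0.255 in chronic against control and 0.232 in chronic against acute (Dusp1, 1.26), and the members under an unadjusted 0.05 were the same. The share of all probe sets under 0.05 in either direction was higher with the block: 4.21% in place of 0.851% in acute against control, 13.0% in place of 5.51% in chronic against control and 13.9% in place of 5.12% in chronic against acute. Dusp1, Dusp5 and Dusp6 kept their sign throughout in all 3 comparisons, and Dusp14 in both with the chronic group. Differences near 0 turned in sign, and the cause was not tested. With quantile normalization and with median centring chronic against control was 0.016 and 0.017 for Dusp10 and 0.0046 and 0.012 for Dusp16. The covariates gave 0.048 for Dusp10 and 0.34 for Dusp4 in chronic against control, and -0.053 for Dusp14 and -0.0030 for Dusp7 in acute against control. Without the arrays high in cortex genes the latter pair were -0.16 and -0.084. Without those high in choroid plexus genes chronic against control was 0.048 (Dusp10), 0.055 (Dusp16) and 0.11 (Dusp4), chronic against acute 0.091 (Dusp16) and -0.021 (Dusp7), and acute against control -0.036 (Dusp16).

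Leaving out single arrays gave, for acute against control, -0.035 to 0.098 (Dusp10), -0.0996 to 0.17 (Dusp14), -0.097 to 0.14 (Dusp16) and -0.036 to 0.078 (Dusp7). For chronic against acute it gave -0.099 to 0.037 (Dusp10), -0.15 to 0.091 (Dusp16), -0.13 to 0.27 (Dusp4) and -0.021 to 0.093 (Dusp7), and for chronic against control -0.067 to 0.067 (Dusp10), -0.079 to 0.092 (Dusp16) and -0.28 to 0.12 (Dusp4). The members' median in acute against control was 0.014 with no filter, which adds Dusp2, -0.14 without the cortex-rich arrays and -0.14 to -0.034 without single arrays. In chronic against acute it was 0.13 with no filter, 0.46 with the covariates and 0.21 to 0.35 without single arrays, and in chronic against control 0.25 with the covariates.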
